A study of Mus musculus with 4 samples.

Results

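The TRIM proteins form a large family, mostly of ubiquitin ligases, enzymes that attach ubiquitin to chosen target proteins. They typically carry a RING finger, 1 or more B-boxes and a coiled coil in this order, and some members lack a part. The stretch after the coiled coil differs between members and contributes to what each protein binds, the PRY-SPRY domain being the most common. Many TRIM genes are known to be induced by interferon in macrophages, and their products act on viruses or on the sensors, adaptors and transcription factors of innate signalling. A gene was counted in the family where its symbol on the array was Trim followed by a number and its probe named no other gene, which gave 60 genes with 68 probes among the 19938 genes measured. Where several probes were present for a gene, the one brightest on average over the 4 arrays was used.

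The arrays compared macrophages of 2 treatments, and the study examined them to see how predicted targets of the microRNA let-7 responded to LPS. The tested cells were peritoneal macrophages of C57BL/6 mice given 100 ng/ml LPS, a lipid of the outer membrane of Gram-negative bacteria that activates TLR4 (2 samples), and the control cells were the same kind of macrophages given PBS (2 samples), both with a labelled time of 6 h. The study's methods describe its wild-type animals as male, and the labels give no genetic difference between the groups. The labels call the samples biological replicates without saying whether these were separate mice or cultures, so each p-value speaks of the spread among these 4 samples, which may be technical, and so few arrays limit how precise any value can be.

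Each sample had its own single-colour array, read with the dye Cy5. The median deposited signal was 683 and 1054 on the LPS arrays and 1026 and 1047 on the PBS arrays. The share of probes above background, taken as a detection p-value under 0.05, was between 55.8% and 63.3% on the LPS arrays and between 61.7% and 62.2% on the PBS arrays, the lowest being LPS replicate 1. All signals below are linear values after quantile normalization between arrays, and all fold changes are on the log2 scale, LPS over PBS, unless a linear fold is named. Of 10 macrophage markers, 9 were measured and all 9 were above background on all 4 arrays. Markers of other peritoneal cells were partly present. *Upk3b*, *Wt1* and *Krt19* of mesothelial cells, *Cd79a*, *Cd79b* and *Pax5* of B cells, *Cd2*, *Cd3e* and *Cd3g* of T cells, *Tpsb2*, *Cpa3* and *Cma1* of mast cells, *Epx* and *Prg2* of eosinophils, *Mpo* of neutrophils and *Zbtb46* of dendritic cells were above background on all 4 arrays. *Blk* and *Ms4a1* of B cells, *Cd3d* and *Cd5* of T cells, *Fcer1a* and *Kit* of mast cells, *Ccr3* of eosinophils, *Elane* and *S100a8* of neutrophils, and 4 of 5 dendritic cell and 3 of 4 NK cell markers were above background on none. The summed marker signal was higher on both LPS arrays than on both PBS arrays for T cells (11099 and 12978, against 7847 and 7326), mast cells (16970 and 15226, against 12514 and 12537), neutrophils (5751 and 4695, against 3623 and 3861), eosinophils (2790 and 2500, against 2156 and 1552) and dendritic cells (3509 and 4052, against 2552 and 3256), and it overlapped between the groups for NK cells. Among these markers 1 passed the test, *Lck* of the T cell list, and without it, a sum added after seeing the data, the T cell markers came to 6050 and 6111 on the LPS arrays, below 7372 and 6836 on the PBS arrays. The single markers did not all follow the sums, which also include markers above background on no array. *Tpsb2*, *Cma1* and *Mpo* were higher on both LPS arrays than on both PBS arrays, and *Cpa3* was lower. *Epx*, *Prg2* and *Zbtb46*, the only dendritic cell marker above background, overlapped between the groups. The part of these other cell types in the results on TRIM genes was not tested. RNA of whole samples cannot tell more cells of a type from more RNA per cell.

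Of the 60 TRIM genes, 8 rose with LPS and 0 fell at an adjusted p under 0.05 (limma, Benjamini-Hochberg adjustment over 19938 genes), beside 3.22% of all genes that rose and 2.32% that fell. The 8 were *Trim30c*, *Trim30d*, *Trim21*, *Trim30b*, *Trim12a*, *Trim34a*, *Trim26* and *Trim25*, and all had been placed in the PRY-SPRY class. The classes were not checked against protein sequences, so a gene placed in this class may lack the domain. At an unadjusted p under 0.05 (limma), 11 of the 60 TRIM genes were higher and 5 lower, beside 2388 higher and 2769 lower of all 19938 genes. Both LPS arrays lay above both PBS arrays for 27 of the 60 genes, against 32.2% of all genes, and below them for 17, against 27.5% of all genes. The median log2 fold change of the family was 0.13 and that of all genes 0.04, so most members stood near the middle of the table and a small group stood far above it. The count of 8 was 5 without LPS replicate 1, 2 without PBS replicate 1 and 1 without PBS replicate 2.

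The stretch of DNA around the start of each gene was searched for the core of the interferon-stimulated response element, the site that interferon regulatory factors and the ISGF3 complex are known to bind. The letters searched were GAAANNGAA, which read TTCNNTTTC on the other strand, in windows of 300 bases (250 before the annotated start and 50 from it on) taken from the RefSeq promoter table of GRCm38.p6. Of all 32851 windows, 8.56% held these letters, and of the 27025 genes with a window, 9.76% held them in at least 1. A window was present for 47 of the 60 TRIM genes, and 8 of the 47 held the letters. They were in 6 of the 8 genes that rose and in 2 of the 39 others, *Trim2* and *Trim7*. The NF-kB letters GGANTTTCC, or GGAAANTCC on the other strand, were in 1.25% of all windows, in 1.45% of all genes with a window and in 0 of the 47 TRIM genes. The 6 genes that rose and held the letters are given with the match in capitals, each as 60 bases on the strand of the gene. The windows of *Trim21* and *Trim26* each held 2 matches that overlap by 3 bases.
Trim21, chr7:102565453-102565512 (−): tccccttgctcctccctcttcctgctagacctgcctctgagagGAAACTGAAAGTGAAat
Trim25, chr11:88999368-88999427 (+): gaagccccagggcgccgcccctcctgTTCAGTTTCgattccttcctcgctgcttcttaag
Trim26, chr17:36836964-36837023 (+): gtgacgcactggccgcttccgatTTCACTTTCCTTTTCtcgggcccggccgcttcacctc
Trim12a, chr7:104315466-104315525 (−): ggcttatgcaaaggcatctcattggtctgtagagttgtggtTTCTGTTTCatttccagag
Trim34a, chr7:104244427-104244486 (+): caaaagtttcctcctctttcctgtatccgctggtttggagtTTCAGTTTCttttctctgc
Trim30d, chr7:104507856-104507915 (−): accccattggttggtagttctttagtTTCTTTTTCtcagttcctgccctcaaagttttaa

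Counted with the annotated start as base 0, the match began at base 13 of *Trim21*, at base 11 of both *Trim12a* and *Trim34a*, at base −9 of *Trim25*, at base −40 of *Trim30d* and at base −159 of *Trim26*. The windows of *Trim30c* and *Trim30b*, which also rose, did not hold the letters. The stretch of the *Trim30c* window most like the *Trim30d* sequence is shown for comparison, with the bases that align to the *Trim30d* match in capitals. These capitals began at base −136 of *Trim30c*, further from the start than the match at base −40 of *Trim30d*.
Trim30c, chr7:104400881-104400940 (−): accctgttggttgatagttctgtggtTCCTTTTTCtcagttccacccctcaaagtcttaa
The stretches were identical at 51 of 60 bases. Within the capitals they differed by T2C (the base of *Trim30d*, the position counted from 1 at the first capital, the base of *Trim30c*). A match says only that the letters are present, and binding was not measured.

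**Figure D1:**
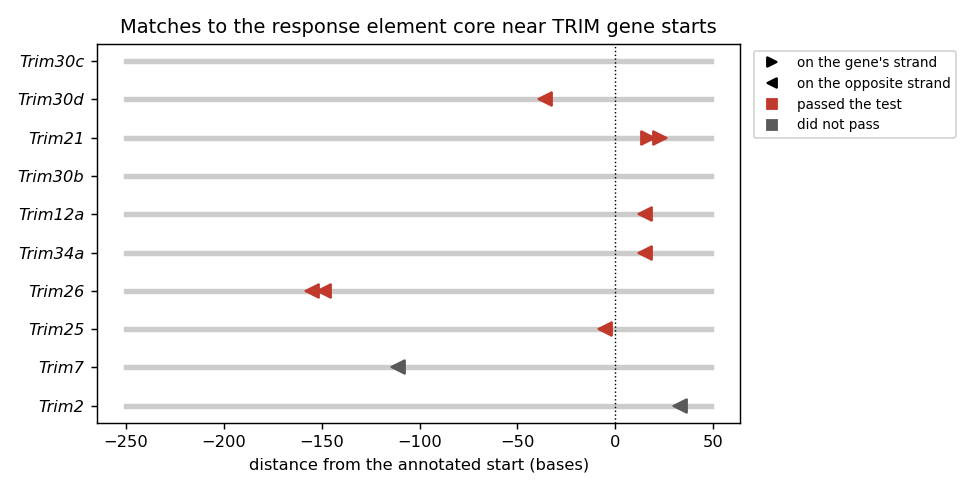
Position of each match to the response element core in the windows of the 8 TRIM genes that rose with LPS and of the 2 others with a match. The horizontal axis is the distance from the annotated start in bases, each grey line is a window, each triangle is a match pointing along its strand, and *Trim30c* and *Trim30b* show none.

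*Trim21* encodes a cytosolic antibody receptor that marks antibody-coated viruses for destruction by the proteasome. Its signal was 37491 and 47838 on the LPS arrays and 4866 and 4659 on the PBS arrays. Both LPS values were far above both PBS values, and the spread within each group was small beside the gap. The log2 fold change was 3.15 with a standard error of 0.23 (8.89-fold, limma adjusted p = 0.0054). A second probe gave 31729 and 38196 on the LPS arrays and 3173 and 2618 on the PBS arrays, a log2 fold change of 3.59. The call was lost without PBS replicate 1 (adjusted p = 0.0552) and without PBS replicate 2 (adjusted p = 0.0787).

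*Trim25* encodes a ligase that acts in RIG-I signalling against RNA viruses and can also attach ISG15. Its signal was 66764 and 59411 on the LPS arrays and 24677 and 23145 on the PBS arrays. The gene was thus far above background in both groups and rose by a smaller factor, with a log2 fold change of 1.40 and a standard error of 0.21 (2.64-fold, limma adjusted p = 0.0304). *Trim26*, which has been placed in the control of IRF3 and of interferon beta production, had signals of 21460 and 23908 on the LPS arrays and 7962 and 8475 on the PBS arrays. Its log2 fold change was 1.46 with a standard error of 0.21 (2.76-fold, limma adjusted p = 0.0270). Of the 8 calls, these 2 were lost under the most alternatives. Without any 1 of the 4 arrays, the adjusted p of *Trim25* was between 0.0553 and 0.225 and that of *Trim26* between 0.0604 and 0.194. With the authors' second table of scaled signals it was 0.0738 for *Trim25* and 0.0544 for *Trim26*, and with scaling to the 75th percentile it was 0.0644 for *Trim25*.

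The other 5 genes that rose lie in 1 cluster on chromosome 7, where 10 of the 11 protein-coding genes between *Trim6* and *Trim30d* in the RefSeq table are TRIM genes. Only 6 of the 10 had a probe of their own. *Trim30b*, *Trim30c*, *Trim30d*, *Trim12a* and *Trim34a* rose, and *Trim6* was above background on no array. Chromosome 7 held 12 of the 60 genes and 6 of the 8 that rose, *Trim21* being the sixth, while chromosome 11 held 10 and 1, and chromosome 17 held 6 and 1. The genes of this cluster are related, and some may be close copies of each other. Probe sequences were not compared here, so signal from a copy cannot be told apart from signal of the named gene.

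*Trim30b*, *Trim30c* and *Trim30d* are relatives of mouse *Trim30a*, whose product is known to dampen TLR signalling by acting on TAB2 and TAB3. *Trim30c* had signals of 26620 and 28300 on the LPS arrays and 282 and 399 on the PBS arrays, where it was not above background. This was the widest gap of the family, at least 53.5-fold when the PBS level was set to the lowest signal of any probe above background on each array (fitted log2 fold change 6.35, standard error 0.25, limma adjusted p = 0.00167). The call of *Trim30c* was kept without each of the 4 arrays in turn, with adjusted p values between 0.0202 and 0.0353.

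*Trim30d* had signals of 17674 and 15698 on the LPS arrays and 1151 and 1038 on the PBS arrays. It was above background in both groups and its log2 fold change was 3.93 with a standard error of 0.21 (15.2-fold, limma adjusted p = 0.00298), a call lost without PBS replicate 2 (adjusted p = 0.0577). A further probe names both *Trim30d* and *Trim30a* and so stands outside the 60 genes. It read 28789 and 26268 on the LPS arrays and 2315 and 1817 on the PBS arrays, a log2 fold change of 3.74. *Trim30b* was much dimmer, with 1484 and 1492 on the LPS arrays and 254 and 200 on the PBS arrays. It was not above background with PBS, and the rise was at least 2.90-fold (fitted log2 fold change 2.72, standard error 0.23, limma adjusted p = 0.00689). Its call was lost without PBS replicate 1 (adjusted p = 0.0574) and without PBS replicate 2 (adjusted p = 0.0882).

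*Trim12a* is a rodent relative of primate TRIM5, which binds the capsids of incoming retroviruses. Its signal was 28819 and 21134 on the LPS arrays and 4186 and 4295 on the PBS arrays, a log2 fold change of 2.54 with a standard error of 0.24 (5.82-fold, limma adjusted p = 0.00996). *Trim34a*, a mouse counterpart of human TRIM34, had 20857 and 20376 on the LPS arrays and 3934 and 4902 on the PBS arrays. Its log2 fold change was 2.23 with a standard error of 0.22 (4.69-fold, limma adjusted p = 0.0111). In both genes the groups were well apart. Their calls were lost without PBS replicate 1 (adjusted p = 0.0934 for *Trim12a* and 0.101 for *Trim34a*) and without PBS replicate 2 (0.106 for *Trim12a* and 0.0942 for *Trim34a*), and that of *Trim34a* also without LPS replicate 1 (0.0577).

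**Figure D2:**
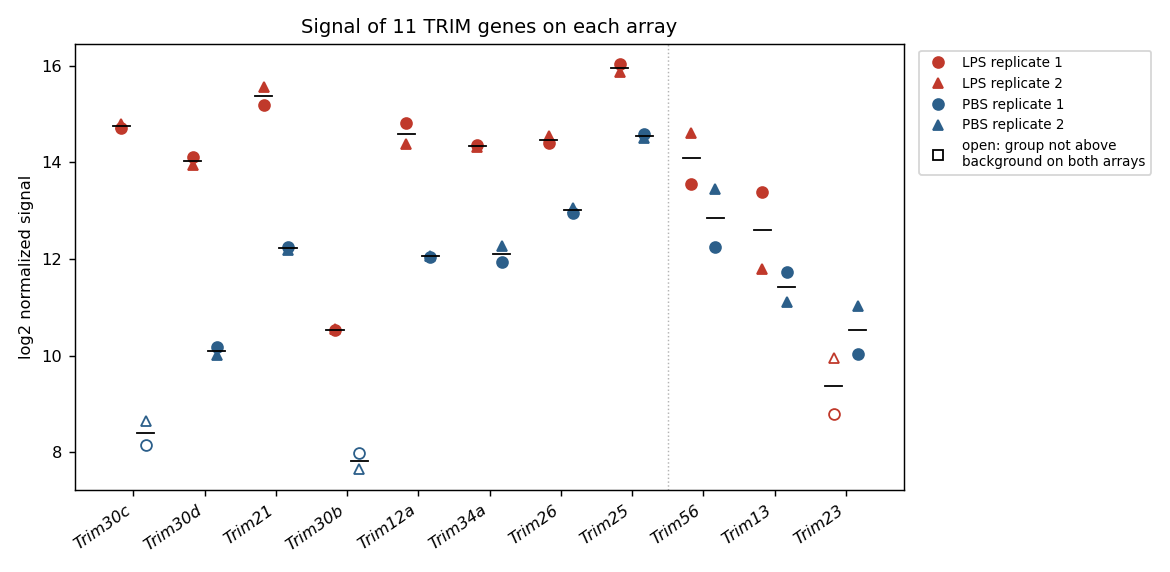
Log2 normalized signal of 11 TRIM genes on each array, with LPS left of PBS, circles for replicate 1, triangles for replicate 2, open symbols for a group that was not above background on both arrays and bars at the group means. Left of the dotted line are the 8 genes that rose, each with both LPS arrays well above both PBS arrays, and right of it *Trim56*, *Trim13* and *Trim23*, whose replicates lie far apart.

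Beside the 8, 3 genes above background differed between the groups by a log2 value of 1 or more and did not pass the test. *Trim56*, which takes part in the response to cytosolic DNA and RNA, had 12036 and 24923 on the LPS arrays and 4892 and 11200 on the PBS arrays. Each LPS array was above both PBS arrays, but replicate 2 was about as far above replicate 1 within each group as LPS was above PBS. The log2 fold change was 1.23 with a standard error of 0.54 (limma adjusted p = 0.228), and with each array left out in turn the fold change was between 0.63 (without PBS replicate 1) and 1.88 (without PBS replicate 2). *Trim23*, whose C-terminal part is an ARF GTPase domain, showed the same order of replicates in the opposite direction of change, with 446 and 986 on the LPS arrays, of which 1 was above background, and 1051 and 2097 on the PBS arrays. Its log2 fold change was −1.16 with a standard error of 0.51 (limma adjusted p = 0.232), between −1.76 (without LPS replicate 2) and −0.59 (without LPS replicate 1) when an array was left out. The summed signal of the 4 mesothelial markers had this order as well, with 16227 and 53587 on the LPS arrays and 21885 and 59594 on the PBS arrays. Of these markers, *Upk3b* and *Wt1* had this order in both groups. *Krt19* and *Msln* had it on the LPS arrays and the reverse order on the PBS arrays. The part of mesothelial cells in the values of *Trim56* and *Trim23* was not tested.

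*Trim13*, a ligase anchored in the membrane of the endoplasmic reticulum, had the reverse order of replicates. Its signal was 10759 and 3553 on the LPS arrays and 3379 and 2223 on the PBS arrays, so that LPS replicate 2 was close to PBS replicate 1. The log2 fold change was 1.17 with a standard error of 0.57 (limma adjusted p = 0.264). Leaving out LPS replicate 1 gave 0.37, leaving out LPS replicate 2 gave 1.98, and the gene passed in neither case. A second probe had the same pattern, with 8768 and 3157 on the LPS arrays and 2443 and 2088 on the PBS arrays (log2 fold change 1.22).

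Of the 32 members placed in the PRY-SPRY class, the largest, 8 rose, 0 fell and 24 did not pass. Both LPS arrays were above both PBS arrays for 21 of the 32, against 32.2% of all genes, and below them for 7, against 27.5% of all genes. The class median log2 fold change was 0.36. These counts and the median include 10 members that were above background on no array. Among members that did not pass, *Trim39* had 2682 and 4350 on the LPS arrays and 5793 and 7969 on the PBS arrays (log2 fold change −0.99, limma adjusted p = 0.149). *Trim68* had a log2 fold change of −0.82, *Trim11* of −0.78 and *Trim41* of −0.71, and in each the LPS arrays lay below the PBS arrays. *Trim16*, *Trim27*, *Trim14*, *Trim35*, *Trim62*, *Trim65*, *Trim47*, *Trim58*, *Trim60* and *Trim69* were above background on some or all arrays, with log2 fold changes between −0.71 for *Trim16* and 0.62 for *Trim69*. *Trim35* was a bright gene with little difference, at 32494 and 30696 on the LPS arrays and 32229 and 29763 on the PBS arrays. *Trim6*, *Trim7*, *Trim10*, *Trim15*, *Trim17*, *Trim38*, *Trim50*, *Trim61*, *Trim72* and *Trim75* were above background on no array, so their differences have no measured size.

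The class with a PHD finger and a bromodomain holds the chromatin regulators *Trim24*, *Trim28* and *Trim33*, and *Trim66*, and none of the 4 passed. *Trim33* had 8132 and 8817 on the LPS arrays and 4364 and 4553 on the PBS arrays. The groups did not overlap and the log2 fold change was 0.93 with a standard error of 0.20 (limma adjusted p = 0.0699). *Trim24* leaned the other way, with 628 and 794 on the LPS arrays, of which 1 was above background, and 1041 and 1643 on the PBS arrays (log2 fold change −0.89, limma adjusted p = 0.158). *Trim28*, the corepressor KAP1 of zinc finger proteins that silence retroelements, was among the brighter members and differed little, at 30863 and 38767 on the LPS arrays and 30527 and 37160 on the PBS arrays. *Trim66* was above background on no array.

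In the class with a COS box and a fibronectin III repeat, *Trim36* had 4544 and 3964 on the LPS arrays and 2200 and 2075 on the PBS arrays. Its groups did not overlap either, and its log2 fold change was 0.99 with a standard error of 0.21 (limma adjusted p = 0.0657). A second, dim probe of *Trim36* was above background on no array. *Trim33* and *Trim36* both passed when only probes above background on both arrays of at least 1 group were kept before the adjustment. The limma adjusted p was then 0.0487 for *Trim33* and 0.0452 for *Trim36*. *Trim9*, *Trim46* and *Trim67* of the same class had log2 fold changes between −0.32 and 0.16, *Trim67* being above background on 1 PBS array only. *Trim54*, *Trim55* and *Trim63*, which are known from skeletal and heart muscle, and *Trim42* were above background on no array.

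The NHL class is known for binding RNA and for acting in development. *Trim71*, a textbook target of let-7, was above background on no array, with 244 and 236 on the LPS arrays and 284 and 246 on the PBS arrays. *Trim2* was below background as well, *Trim3* was above it on 1 PBS array only, and *Trim32* was above it on all 4 with a log2 fold change of −0.17. Of the remaining genes, *Trim37* with its MATH domain had a log2 fold change of −0.49, and *Trim45* with its filamin repeat was below background. *Trim59*, which like *Trim13* has a membrane anchor, had a log2 fold change of −0.46 with groups that overlapped. Of the genes with no assigned C-terminal domain, *Trim44*, *Trim29*, *Trim8* and *Trim40* were above background on all 4 arrays with log2 fold changes between −0.53 for *Trim44* and 0.19 for *Trim40*, and *Trim31* and *Trim52* on none. In all, 31 of the 60 genes (51.7%) were above background on all 4 arrays, against 59.7% of all genes, 9 on some arrays and 20 on none.

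**Figure D3:**
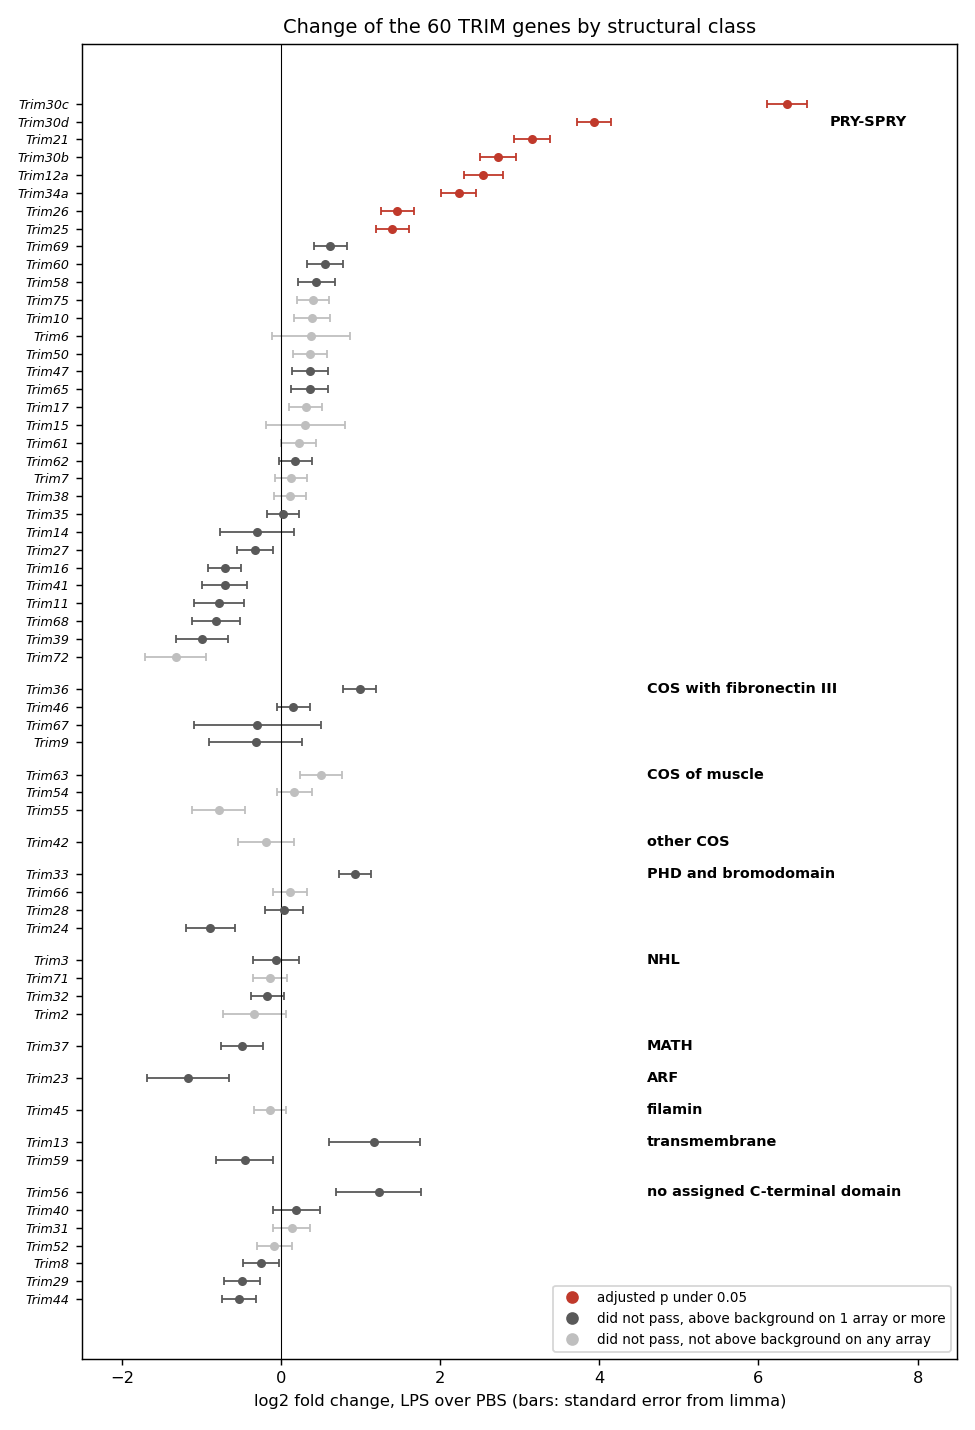
Log2 fold change, LPS over PBS, of the 60 TRIM genes in their structural classes, with bars for the standard error from limma. Red points are the 8 genes that passed the test, all placed in the PRY-SPRY class. Dark points did not pass and were above background on 1 array or more, and light points were above background on no array.

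More than 1 probe was present for *Trim13*, *Trim21*, *Trim36*, *Trim40*, *Trim46*, *Trim60* and *Trim9*. Where a second probe was above background, as for *Trim21*, *Trim13* and *Trim46*, it moved in the same direction as the brightest one. For *Trim46* the values differed in size, with log2 fold changes of 0.16 for the brightest probe and 0.68 for the other. The further probes of *Trim36*, *Trim40*, *Trim60* and *Trim9* were above background on no array.

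**Figure D4:**
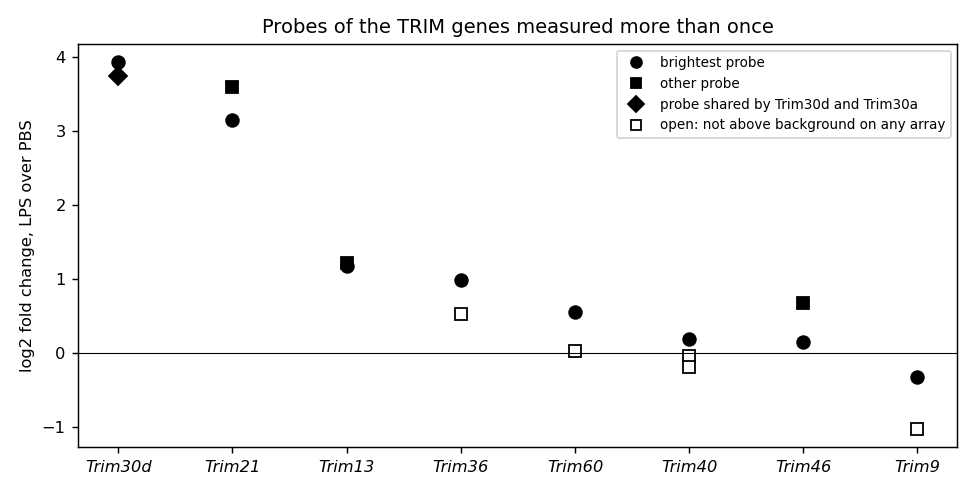
Log2 fold change, LPS over PBS, of each probe of the TRIM genes measured more than once. Filled symbols are probes above background on all 4 arrays, open symbols are probes above background on none, and the diamond is the probe that names both *Trim30d* and *Trim30a*, at 3.74 beside 3.93 for *Trim30d* alone.

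Relatives that share TRIM domains under another name were counted from a list of 15 genes, of which 14 were measured. The median log2 fold change of the 14 was 0.06. Of them, 3 rose and 0 fell, beside 3.22% of all genes that rose and 2.32% that fell. *Mefv*, which encodes the inflammasome sensor pyrin, had a log2 fold change of 3.66 with a standard error of 0.20 (limma adjusted p = 0.0032). *Pml*, the organiser of nuclear bodies, had one of 2.92 with a standard error of 0.23 (limma adjusted p = 0.0068). *Rnf135*, the ligase Riplet that acts with RIG-I, had one of 1.52 with a standard error of 0.21 (limma adjusted p = 0.0266). In each of the 3 both LPS arrays were above both PBS arrays.

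Among known targets and partners of TRIM proteins, 32 of 33 listed genes were measured, with a median log2 fold change of 0.60. Of the 32, 9 rose and 0 fell, beside 3.22% of all genes that rose and 2.32% that fell. Both lists were chosen with earlier results of these data known. The RNA sensors were among the 9 that rose. *Ddx58*, which encodes RIG-I, had a log2 fold change of 3.74 and *Ifih1*, which encodes MDA5, one of 5.05. *Ube2l6*, the conjugating enzyme that hands ISG15 to its ligases, had a log2 fold change of 3.24, and *Irf7*, a transcription factor that drives interferon genes, one of 4.89. *Cgas*, *Daxx*, *Nfkbia*, *Nod2* and *Sp100* were the others that rose. *Mavs*, the adaptor of RIG-I, had a log2 fold change of −0.07 and *Irf3* one of −0.53, and neither passed. *Tab2* had a log2 fold change of 1.23 and *Tab3* one of 0.15, and the adjusted p was 0.056 for *Tab2* and 0.69 for *Tab3* (limma). The other measured genes of the list from the family of ubiquitin-conjugating enzymes, which work with RING ligases, did not pass the test. Their log2 fold changes were between −1.47 for *Ube2d2a* and 0.87 for *Ube2d1*.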

How the data were processed

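Total RNA was amplified, labelled with Cy5 and hybridised to Mouse OneArray Plus microarrays by the authors. The deposited table holds a raw intensity per probe and array. Its background method was not given in the sources used here, and it was treated as already background-subtracted, since LPS replicate 1 has 60 intensities of 0 or less. The deposited detection p-value decided whether a probe was above background (under 0.05) and entered no test. The deposited spot flag, a score whose meaning is not given, was 0 for every TRIM probe. A second deposited table holds the same intensity times 1 constant per array (1.29 and 0.959 for LPS, 0.869 and 0.972 for PBS) and was an alternative.

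Of 26423 probes, 22815 had 1 symbol, 246 several and 3362 none. Symbols were updated through the RefSeq gene table: of 19962, 17486 were current, 1906 updated and 570 kept. Intensities were quantile-normalized, converted to log2 and fitted by limma (version 3.58.1, lmFit and eBayes, R 4.3.3) over 19938 genes, without a filter. Each gene had 2 residual degrees of freedom, to which the prior added 3.11. The fit was tested on simulated data. Signals per array were given for each TRIM gene past the test and for each above background on both arrays of a group with a log2 fold change of 1 or more in size, and further members were named by class. The classes were assigned from background knowledge, without a check against protein sequences. RIG-I in the list of partners was matched as *Ddx58*. Members and lists were chosen with earlier results of these data known. Alternatives changed the background correction, scaling, source table, filters, probe rule, floor, replicate block, variance model or test (the methods' t-test), or left out an array. The values of 1 marker gene are not reported here.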

Additional observations from a re-analysis of the deposited data

How the results depend on the processing

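The 18 TRIM genes followed through 17 alternatives kept their direction in all of them. In several, such as the block, the other variance model and the t-test, the fold change is that of the main fit, so the direction could not change. The count of 8 TRIM genes higher with LPS was between 6 and 10 under background correction, other scalings, the second deposited table, filters, other rules for probes, a floor, the block and another variance model. It was 0 with the methods' t-test after adjustment and 12 without adjustment. The count lower with LPS was 1 with the methods' t-test without adjustment. The median log2 fold change of the family was 0.0097 with the second deposited table, where the median of all genes was −0.07. Leaving out 1 array gave 1 to 6 genes higher, 0 to 1 lower (*Trim72* without LPS replicate 2, a gene above background on no array) and a median of 0.07 to 0.22.

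Leaving out an array leaves 1 sample in a group, which is then assumed to vary like the other group, and 1 residual degree of freedom. With the replicate number as a block, 9 TRIM genes were higher, *Trim56* being added (adjusted p = 0.0495), and 0 lower. Deviations from the group mean of same-numbered arrays correlated at 0.239 over the 19938 genes. The labels do not say that the numbers pair the samples, so the main fit did not pair them. Whether they do was not settled. Over all genes, calls were 642 higher and 462 lower (58.2% higher), against 398 and 132 (75.1% higher) with scaling to the 75th percentile, 327 and 109 with the second deposited table and 532 and 257 (67.4% higher) with cyclic loess. Without 1 array they were 415 and 641 (39.3% higher, LPS replicate 2), 276 and 96 (LPS replicate 1), 141 and 10 (PBS replicate 1), and 39 and 1 (PBS replicate 2). TRIM genes above background on no array have no measured change, which limits 20 of the 60.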

Other observations

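A probe that names *Trim43a*, *Trim43b* and *Trim43c* together was not counted among the 60 genes. It read 1711 and 1440 on the LPS arrays and 1184 and 1164 on the PBS arrays, above background on all 4, with a log2 fold change of 0.42 that did not pass the test (limma adjusted p = 0.296 over all probes). *Lck*, the 1 marker of another cell type that passed the test, was not above background on the PBS arrays and was at least 11.5-fold higher with LPS (fitted log2 fold change 3.61, standard error 0.24, limma adjusted p = 0.0046). Of the other T cell markers, *Cd2*, *Cd3e* and *Cd3g* were above background on all 4 arrays and did not pass, and *Cd3d* and *Cd5* were above background on none.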
